A study of Mus musculus with 6 samples.

Results

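The genes described here are 9 genes whose proteins mouse neutrophils store in their granules. Mpo, Elane, Prtn3 and Ctsg make the proteins of the primary granules, and Ngp, Camp, Ltf, Mmp8 and Retnlg those of the secondary and tertiary granules, called late granule genes below. They were taken by symbol from the feature list, where each was found once among 31054 features. At least 1 unique molecular identifier (UMI) of a member was counted in 21723 of 39048 barcodes, or 55.6%. The series used droplet single-cell RNA sequencing to describe the embryonic precursors of osteoclasts, which resorb bone, in the mouse. Its labels name 6 samples in 3 groups of 2. Cx3cr1CreER; R26tdTomato embryos received 4-hydroxytamoxifen at E9.5 (embryonic day 9.5), and Csf1r-Mer-iCre-Mer; Csf1r-EGFP; R26tdTomato embryos at E8.5, and from both, cells of the macrophage and monocyte lineage were collected from the whole body at E14.5. Adult cells came from total bone marrow of wildtype C57BL/6 animals aged 2 months and with no drug, the third group. The drug lets Cre act only in cells that use the Cx3cr1 or the Csf1r promoter at that time, and these cells and their progeny carry the red protein tdTomato. The labels do not say how many embryos or mice went into a sample.

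The barcodes of the matrix carry a suffix from 1 to 4, which stands for the library. The suffixes match no label, so the libraries are called libraries 1 to 4, and no labelled group was compared with another. Cell classes were compared within the 1 pooled matrix, so no difference has a test over samples. Values by library are given in place of one, for clusters 21 and 17 below mostly those of libraries 3 and 4, since libraries 1 and 2 hold 1 to 5 cells of each. Intervals are 95% and cover counting error only (exact Poisson for levels, exact binomial for shares), and levels are CPM, the UMIs of a gene per 1000000 UMIs of a class. These 3′ counts are not scaled by length, so levels of different genes are set side by side only to describe a cell's counts. The libraries held 127153052, 106500620, 129007371 and 198754246 UMIs, and any pair of them shared 85 to 206 barcode sequences, near the 84.7 to 178.9 that the sizes of the libraries and the list of possible barcodes give.

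Neutrophils fill their granules in waves as they mature. Primary granule proteins such as myeloperoxidase are made by promyelocytes, secondary granule proteins such as lactoferrin by myelocytes and metamyelocytes, and tertiary granule proteins such as gelatinase later still, so that a granule protein is a sign of the stage at which its gene was read. PU.1 and C/EBP alpha act early in this programme, and C/EBP epsilon is needed for the secondary granules.

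The 4 primary granule genes lie on 3 chromosomes. Prtn3 (chr10:79874476-79883174) and Elane (chr10:79886247-79888215) are neighbours on the plus strand, 3072 bases apart, Mpo lies at chr11:87793581-87804413 on the plus strand, and Ctsg at chr14:56099881-56102574 on the minus strand. Of the late genes, 4 lie on chromosome 9, namely Mmp8 (chr9:7558456-7568485), Camp (chr9:109847379-109849617, minus strand), Ngp (chr9:110419747-110423012) and Ltf (chr9:111019271-111042767), and Retnlg lies at chr16:48872621-48874496. All positions are on GRCm38 from GENCODE M21. The antisense gene Gm11505 overlaps Mpo and was counted 68 times, against 260071 UMIs of Mpo, and Plppr3 overlaps Prtn3 and was counted 7158 times, against 229474 UMIs of Prtn3. No source used here says whether counting used the strand, so reads of overlapping genes cannot be told apart.

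Promoter windows of 300 bases, from 250 before to 50 after the RefSeq start on GRCm38.p6, were found for 9 of 9 members, and they are shown because the 2 gene groups, which were read in different cells, also differ in which short motifs they hold. Capitals mark AGGAAGT, a core that PU.1 and other Ets factors bind, or TTNNGCAA, a spelling of the C/EBP site, on either strand. Both spellings were chosen after these windows had been seen, and a match is a description and no evidence of binding. The windows of 4 of 4 primary genes held AGGAAGT (reverse complement ACTTCCT) and 0 of 4 held TTNNGCAA (reverse complement TTGCNNAA). The 4 primary windows are those of Mpo (chr11:87793534-87793833, plus strand), Elane (chr10:79886062-79886361, plus strand), Prtn3 (chr10:79879417-79879716, plus strand) and Ctsg (chr14:56102525-56102824, minus strand).
Mpo: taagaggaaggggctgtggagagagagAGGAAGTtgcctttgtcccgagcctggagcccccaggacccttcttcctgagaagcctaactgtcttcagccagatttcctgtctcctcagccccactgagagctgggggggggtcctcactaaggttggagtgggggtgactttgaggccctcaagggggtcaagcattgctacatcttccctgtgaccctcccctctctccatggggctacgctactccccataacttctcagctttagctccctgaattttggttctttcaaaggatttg
Elane: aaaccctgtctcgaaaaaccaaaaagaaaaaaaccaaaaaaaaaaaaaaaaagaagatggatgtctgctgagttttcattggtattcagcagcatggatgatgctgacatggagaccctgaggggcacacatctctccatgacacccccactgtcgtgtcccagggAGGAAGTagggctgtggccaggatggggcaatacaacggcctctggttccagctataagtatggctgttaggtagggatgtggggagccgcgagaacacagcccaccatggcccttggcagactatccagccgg
Prtn3: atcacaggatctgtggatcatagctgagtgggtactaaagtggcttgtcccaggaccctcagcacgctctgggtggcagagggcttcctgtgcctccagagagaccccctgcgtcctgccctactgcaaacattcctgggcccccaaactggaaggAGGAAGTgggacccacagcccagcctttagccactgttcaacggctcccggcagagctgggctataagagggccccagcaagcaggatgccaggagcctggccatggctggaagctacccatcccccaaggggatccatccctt
Ctsg: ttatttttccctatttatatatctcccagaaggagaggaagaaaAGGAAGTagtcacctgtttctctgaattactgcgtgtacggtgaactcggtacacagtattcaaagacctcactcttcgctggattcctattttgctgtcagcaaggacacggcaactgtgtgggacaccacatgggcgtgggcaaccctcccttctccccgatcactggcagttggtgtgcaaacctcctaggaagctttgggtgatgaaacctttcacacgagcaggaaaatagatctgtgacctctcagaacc
Of the late windows 4 of 5 held TTNNGCAA, and AGGAAGT stood in Mmp8 alone. They are those of Ngp (chr9:110419558-110419857, plus strand), Ltf (chr9:111019042-111019341, plus strand), Mmp8 (chr9:7558179-7558478, plus strand) and Retnlg (chr16:48872358-48872657, plus strand), and the window of Camp, with no match, is not printed.
Ngp: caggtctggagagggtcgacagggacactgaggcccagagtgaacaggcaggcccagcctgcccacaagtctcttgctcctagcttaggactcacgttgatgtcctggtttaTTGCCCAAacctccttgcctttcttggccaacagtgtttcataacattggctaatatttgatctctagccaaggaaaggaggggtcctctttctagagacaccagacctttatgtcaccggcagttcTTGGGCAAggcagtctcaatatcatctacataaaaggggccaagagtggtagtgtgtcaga
Ltf: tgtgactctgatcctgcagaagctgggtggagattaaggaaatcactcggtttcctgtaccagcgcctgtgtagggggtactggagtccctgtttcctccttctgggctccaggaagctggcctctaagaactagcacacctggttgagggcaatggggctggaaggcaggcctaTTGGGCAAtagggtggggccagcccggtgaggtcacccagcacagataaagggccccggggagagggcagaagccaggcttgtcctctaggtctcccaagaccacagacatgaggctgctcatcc
Mmp8: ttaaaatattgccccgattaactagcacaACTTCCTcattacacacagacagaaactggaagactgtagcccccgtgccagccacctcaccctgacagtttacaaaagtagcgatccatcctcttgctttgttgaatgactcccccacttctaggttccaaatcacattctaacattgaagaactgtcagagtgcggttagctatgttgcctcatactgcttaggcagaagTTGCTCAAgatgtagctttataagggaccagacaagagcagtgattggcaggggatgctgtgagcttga
Retnlg: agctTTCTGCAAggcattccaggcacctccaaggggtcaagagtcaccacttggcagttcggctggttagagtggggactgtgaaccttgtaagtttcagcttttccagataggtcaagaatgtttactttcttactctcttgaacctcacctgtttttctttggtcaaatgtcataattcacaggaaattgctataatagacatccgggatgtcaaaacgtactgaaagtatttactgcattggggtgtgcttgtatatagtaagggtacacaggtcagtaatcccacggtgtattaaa
The 2 motifs overlapped in no window. Among all 32851 windows of the table, 9.35% held AGGAAGT and 10.8% held TTNNGCAA. AGGAAGT or its reverse complement stood 223 bases before the start in Mpo, 84 in Elane, 94 in Prtn3, 206 in Ctsg and 221 in Mmp8. The C/EBP spelling stood 138 and 11 bases before the start in Ngp, 75 in Ltf, 19 in Mmp8 and 246 in Retnlg.

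The members divided the libraries into a low and a high pair. A member UMI was present in 28.7%, 29.2%, 75.5% and 78.7% of the barcodes of libraries 1 to 4. Over all barcodes Ngp, which encodes neutrophilic granule protein, stood at 19.6, 20.6, 809 and 766 CPM, and Mpo, the peroxidase that makes hypochlorous acid, at 82.5, 103, 745 and 717 CPM. Prtn3, the serine protease proteinase 3, differed less, with 190 CPM in library 1, 204 in library 2, 544 in library 3 and 571 in library 4. Libraries 3 and 4 were above libraries 1 and 2 for each of these genes. They also held most of the granulocyte cells. Fewer cells of a type and less RNA per cell cannot be told apart in such sums over barcodes. Each library also held brain and liver cell classes. Microglia-like cells numbered 428, 498, 169 and 340, and hepatocyte-like cells 38, 39, 25 and 45, in libraries 1 to 4. Libraries 3 and 4 should therefore not be read as the adult bone marrow samples.

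Of the barcodes, 34372 were kept as cells and grouped into 35 clusters, from which the 9 members and the genes of the 6 lists read out below were held out. The granulocyte-monocyte progenitor-like cluster, cluster 11, held 30, 26, 399 and 641 cells of libraries 1 to 4, with 6 of its 8 fixed markers at least 2-fold above all other cells when 1 CPM was added to both, as in the naming, and 7 when none was, and with Ms4a3 at the head of its genes. Plppr3, which overlaps Prtn3, was also among its 10 leading genes and was not held out. Neutrophil-like cluster 21 held 3, 5, 77 and 151 cells, with 10 of 11 neutrophil markers and 6 of 8 progenitor markers raised, and neutrophil-like cluster 17 held 4, 1, 267 and 281 cells, with 11 of 11 neutrophil markers raised and Ly6g, a surface protein of late neutrophils, among its leading genes. Median depth was 30674 UMIs per cell in cluster 11, 15711 in cluster 21 and 6132 in cluster 17. The 3 clusters are given in this order because of their markers, and no time was measured between them. Macrophage markers (8 genes, none at 0) summed to 410, 243 and 337 CPM in clusters 11, 21 and 17, and cells with 10 or more C1q UMIs numbered 23 of 1096, 6 of 236 and 7 of 553, against 97.7% of macrophage-like cells. Erythroid markers (8 genes) summed to 298, 271 and 744 CPM in clusters 11, 21 and 17.

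The 2 groups of granule genes were highest in different clusters of these 3, whose order was set by markers and not by time. Progenitor-like cells held all 4 primary genes at high levels and the late genes at or near the level of free RNA. Cluster 21 held both groups. Cluster 17 held the late genes, with the primary ones near background in libraries 3 and 4. Microglia-like cells, which are brain macrophages (median 8292 UMIs), served to show the level of free RNA. In them no member exceeded 13.7 CPM over all libraries. Libraries 1 and 2, with few granulocytes, gave 428 and 498 of these 1435 cells. In libraries 3 and 4 the levels of Mpo and Ngp in them were higher, as given below. Neutrophil-like cells as a whole, clusters 21 and 17 together, had the sum of the primary genes lower by 1.62 and that of the late genes higher by 10.25 than progenitor-like cells on the log2(CPM + 10) scale. The primary difference (neutrophil-like minus progenitor-like) was 0.96, -0.03, -1.98 and -1.56 in libraries 1 to 4, where libraries 1 and 2 rest on 7 and 6 neutrophil-like cells and library 1 goes the other way. The late difference was 11.56, 8.38, 10.60 and 10.13, positive in 4 of 4 libraries. A gene counted as higher or lower when this scale put it at least 4-fold apart in the pooled cells. All 9 members passed the filter on low values (a mean of 5 CPM), and 5 of 5 late members were higher, where 2.14% of 8091 genes were, and 1 of 4 primary members, Mpo, was lower, where 3.61% were. The late members passed that filter only through the neutrophil-like cells, so that count is a description. Between cluster 21 and cluster 11 alone, 5 of 5 late members were higher, where 1.32% of 8039 genes were. There 0 of 4 primary members were lower, where 1.31% of genes were. Ltf, Mmp8 and Retnlg, at 4.71, 3.54 and 4.61 CPM in cluster 11, passed the filter only through cluster 21. The count of late members is thus again a description.

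**Figure D1:**
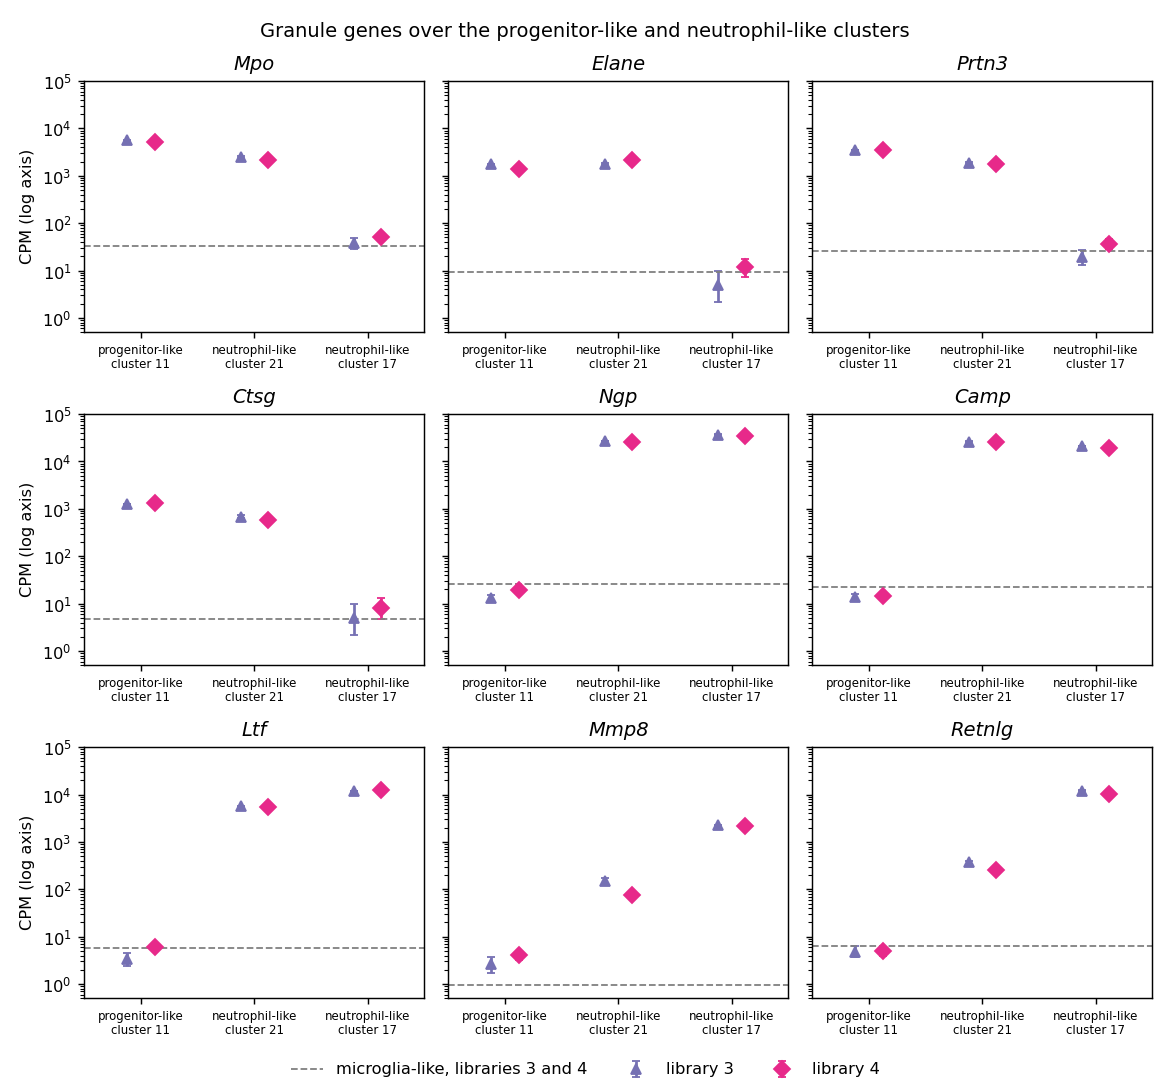
Level of each of the 9 genes (CPM, log axis) in progenitor-like cluster 11, neutrophil-like cluster 21 and neutrophil-like cluster 17, for library 3 (triangles) and library 4 (diamonds), with exact Poisson 95% intervals; the dashed line is the level in microglia-like cells of the same libraries. Primary genes come near the dashed line in cluster 17, and late genes lie near it in cluster 11, with Mmp8 above it.

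In libraries 3 and 4 Mpo was lower in each later cluster. Progenitor-like cells had 2153, 3276, 5594 and 5070 CPM in libraries 1 to 4. In cluster 21 it stood at 2493 and 2112 CPM in libraries 3 and 4, and in cluster 17 at 38.0 and 51.3 CPM, close to the 25.8 and 35.5 CPM of microglia-like cells of the same libraries. The 3 clusters did not overlap in either library. In neutrophil-like cells pooled, Mpo was at 1227 CPM, against 5138 CPM in progenitor-like cells, a log2 difference of -2.06. It was 0.47 and -0.02 in libraries 1 and 2, on 7 and 6 neutrophil-like cells, and -2.30 and -2.05 in libraries 3 and 4.

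Elane, neutrophil elastase, kept another course. It was at 409, 1105, 1737 and 1411 CPM in the progenitor-like cells of libraries 1 to 4, and at 1788 and 2189 CPM in cluster 21 of libraries 3 and 4, at or above its level in the progenitor-like cells of each. In cluster 17 it was at 5.07 and 11.7 CPM. Per UMI of Mpo there were 0.717 and 1.04 UMIs of Elane in cluster 21 of libraries 3 and 4, against 0.310 and 0.278 in progenitor-like cells. The 8 cells of cluster 21 in libraries 1 and 2 gave 1.498 and 0.621, above the 0.190 and 0.337 of progenitor-like cells there.

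Prtn3 and Ctsg followed Mpo more closely in libraries 3 and 4. Prtn3 was at 2536, 3068, 3536 and 3452 CPM in progenitor-like cells of libraries 1 to 4, and in libraries 3 and 4 at 1867 and 1802 CPM in cluster 21 and at 19.6 and 36.0 CPM in cluster 17. Ctsg, the chymotrypsin-like protease cathepsin G, was at 536, 814, 1267 and 1310 CPM in progenitor-like cells, and in libraries 3 and 4 at 679 and 590 CPM in cluster 21 and at 5.07 and 8.12 CPM in cluster 17. Neutrophil-like minus progenitor-like, the few cells of libraries 1 and 2 gave 0.17 and -0.73 for Prtn3 and 0.18 and 0.28 for Ctsg. Between cluster 17 and cluster 21, 4 of 4 primary genes were lower in the pooled cells, where 2.02% of 7185 genes were, by log2 differences of -5.25 (Ctsg) to -6.85 (Elane). Their levels of 6.96 to 44.8 CPM in cluster 17 stood near those in microglia-like cells of libraries 3 and 4, which held most of that cluster.

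Ngp and Camp, the cathelicidin precursor, were already near their highest levels in cluster 21. In libraries 3 and 4 Ngp was at 12.98 and 19.5 CPM in progenitor-like cells, below the 22.1 and 27.0 CPM of microglia-like cells, at 27192 and 25706 CPM in cluster 21 and at 37099 and 34884 CPM in cluster 17. Camp was at 26178 and 25198 CPM in cluster 21 and at 21214 and 19009 CPM in cluster 17. It was lower in cluster 17 in both libraries, although by less than 4-fold. In libraries 1 and 2, with 4 and 1 cells of cluster 17, it was higher there, by 0.25 and 0.54 on the log2 scale. Progenitor-like cells of library 2 showed Camp at 169 CPM, and a single cell gave 129 of the 130 Camp UMIs of the progenitor-like cells of libraries 1 and 2.

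Ltf, the iron-binding lactoferrin, stood between these and the last genes. In libraries 3 and 4 it was at 5603 and 5426 CPM in cluster 21 and at 11962 and 12420 CPM in cluster 17. Mmp8, the neutrophil collagenase, was at 2.60 and 4.03 CPM in progenitor-like cells, against 0.630 and 1.13 CPM in microglia-like cells (the counting intervals overlap in library 3 and not in library 4), at 147 and 75.8 CPM in cluster 21 and at 2248 and 2191 CPM in cluster 17. Retnlg, a resistin-like secreted protein, was at 368 and 252 CPM in cluster 21 and at 12170 and 10228 CPM in cluster 17. Of the late genes 2 of 5, Mmp8 and Retnlg, were higher in cluster 17 than in cluster 21, where 0.891% of genes were, at 22.8 and 38.5 times the CPM of cluster 21. The single cell of cluster 17 in library 2 held no UMI of either, and the log2 difference there was -1.85 for Mmp8 and -4.95 for Retnlg. Ngp, Camp and Ltf were thus within 4-fold of their cluster 17 levels in cluster 21, and Mmp8 and Retnlg were not.

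Cluster 21 held cells with and without primary granule UMIs. The sum of primary UMIs per cell in cluster 21 had a median of 2 and a 90th percentile of 524, and 78 of 236 cells, or 33.1%, held 10 or more. In cluster 17, 2 of 553 cells held 10 or more primary UMIs. In the progenitor-like cluster, 1002 of 1096 cells held 10 or more primary UMIs and 4 held 10 or more late UMIs. The primary level of cluster 21 was therefore carried by a minority of its cells.

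**Figure D2:**
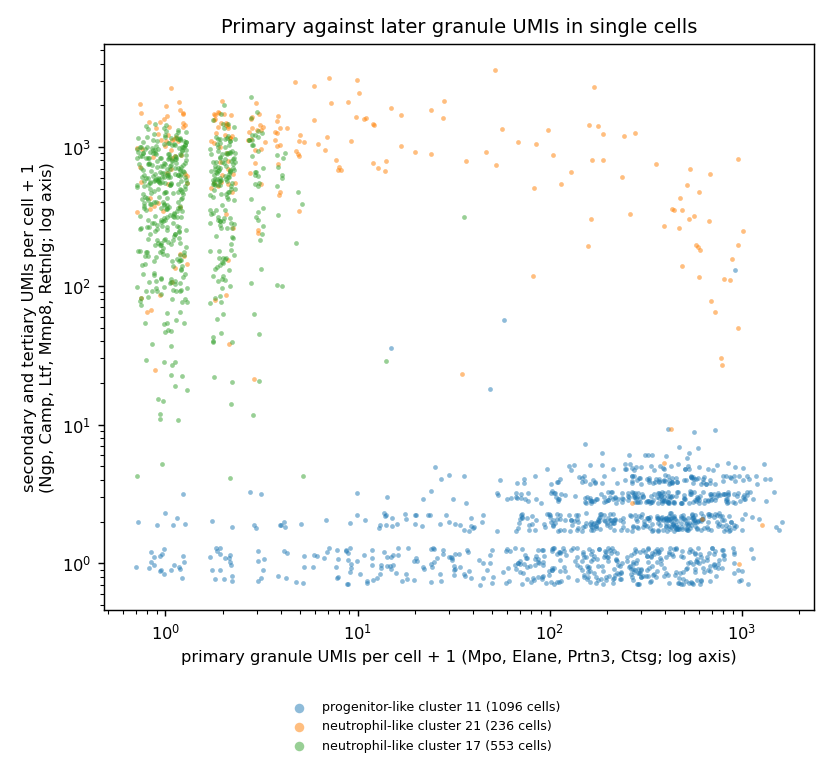
Each point is 1 cell, with its summed UMIs of Mpo, Elane, Prtn3 and Ctsg plus 1 on the x axis and of Ngp, Camp, Ltf, Mmp8 and Retnlg plus 1 on the y axis (log axes, jittered by up to 0.3 UMIs). Cluster 11 lies along the bottom, cluster 17 at the upper left, and cluster 21 runs from the upper left to the right edge, with 33.1% of its 236 cells at 10 or more primary UMIs.

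Cells were then placed by the share of late UMIs among their member UMIs, which used the members themselves, so the sums of the 2 gene groups over these bins are fixed by construction and only the order within a group is described. Of 1885 cells of the 3 clusters, 1789 held 10 or more member UMIs. A late share under 10% was found in 1006 cells, one of 10 to 50% in 31, one of 50 to 90% in 22 and one of 90% or more in 730, and 51 cells lay within 5 points of a boundary. Cells between 10 and 90% were thus few, and their median depths of 23994 and 16222 UMIs lay between the 32161 and the 6903 of the outer bins. Of them 20 and 14 came from library 4, where doublets could not be removed, and the part of doublets in them was not tested.

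Within the late group, Camp stood above Ngp in most cells with a late share of 10 to 90% and in fewer cells outside that range. Camp was at 20.6, 7187, 25060 and 25133 CPM over the 4 bins in rising order of late share, and Ngp at 14.1, 1150, 6293 and 36398 CPM. In the bin under 10%, where late UMIs were few, Ngp exceeded Camp in 234 of 1006 cells and Camp exceeded Ngp in 191. In the bin of 10 to 50%, Camp exceeded Ngp in 22 of 31 cells and Ngp exceeded Camp in 7, and in the bin of 50 to 90% these counts were 17 and 2 of 22 cells. In cells with a late share of 90% or more, Ngp was above Camp in 543 of 730 cells and Camp in 149. Library 3 had 5 against 4 cells and library 4 had 15 against 3 in the bin of 10 to 50%, so that bin shows the order mainly in library 4, whereas the bin of 50 to 90% had 7 against 0 cells in library 3 and 10 against 2 in library 4.

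Within the primary group, the share of cells with Elane above Mpo was largest in the bin of 50 to 90%. Elane was at 1562, 6273, 3893 and 47.7 CPM over the 4 bins, and Mpo at 5237, 6944, 2691 and 60.7 CPM. Elane exceeded Mpo in 37 of 1006 cells of the lowest bin, in 12 of 31 of the next, in 14 of 22 of the third and in 33 of 730 of the highest, where Mpo exceeded Elane in 161. In library 3, Elane exceeded Mpo in 1 cell against 8 in the bin of 10 to 50% and in 4 against 4 in that of 50 to 90%, and in library 4 these counts were 9 against 11 and 10 against 4, so that, of these 2 libraries and bins, Elane was above Mpo in most cells only in the bin of 50 to 90% of library 4. Ctsg was at 1294, 1882, 313 and 8.46 CPM, and Prtn3 at 3509, 4975, 3084 and 139 CPM, and in the third bin Elane and Prtn3 were above their levels in the lowest bin or near them while Ctsg was below. In the third bin Ctsg was at 61.4 CPM in library 3 and 433 CPM in library 4, and Elane at 2610 and 4500 CPM.

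Co-detection was counted after each cell was thinned to 2000 UMIs, which left out 111 of the 1885 cells as too shallow. A primary and a late UMI were found together in 270 of 1774 cells, or 15.2% (13.6 to 17.0), where 31.8% would follow from the shares of each if they were independent over the pooled clusters. Before thinning the share was 56.3%. It was 14.3%, 17.2%, 12.2% and 17.4% in libraries 1 to 4. Progenitor-like cells gave 8.60% (6.96 to 10.5), cluster 21 gave 44.2% (37.7 to 51.0) and cluster 17 gave 15.6% (12.6 to 19.0), and the share in microglia-like cells was 1.16% (0.665 to 1.88). Within clusters 11, 21 and 17, independence would give 8.68%, 45.4% and 15.6%. There 1 of the gene groups was found in 98.6%, 97.8% and 100% of cells, so these shares could hardly differ. Whether the gap between 15.2% and 31.8% also holds within a cluster can thus not be told from them. In microglia-like cells of libraries 3 and 4, 11.4% and 16.5% of cells had a primary UMI and 10.8% and 11.8% a late one, so a late UMI in 6.41% and 10.7% of progenitor-like cells, and a primary UMI in 13.9% and 17.2% of cluster 17, lie within the counting intervals of these shares or below them. The shares of libraries 1 and 2 rest on 35 and 29 cells.

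Pairs of genes in cluster 21 separated along the same order. Of the 61 thinned cells with Mpo, 91.8% also had Camp, 54.1% had Ngp and 29.5% had Ltf. Of the 36 cells with Ctsg, 86.1% had Camp and 27.8% had Ngp. Over all 226 thinned cells of cluster 21, Camp was found in 97.8%, Ngp in 87.2% and Ltf in 79.6%. Cells with Mpo thus had Ngp and Ltf less often than the cluster as a whole, and Camp nearly as often. Every one of the 25 cells with Mmp8 and of the 45 with Retnlg had Ngp, Camp and Ltf. Mmp8 was found in 12.7% of the 197 cells with Ngp, close to its 11.1% over all thinned cells of cluster 21. In cluster 17, 83.6% of the 470 cells with Ngp had Mmp8 and 91.3% had Retnlg. Over all its thinned cells these shares were 85.3% and 91.2%, so cells with Ngp hardly differed from the cluster.

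**Figure D3:**
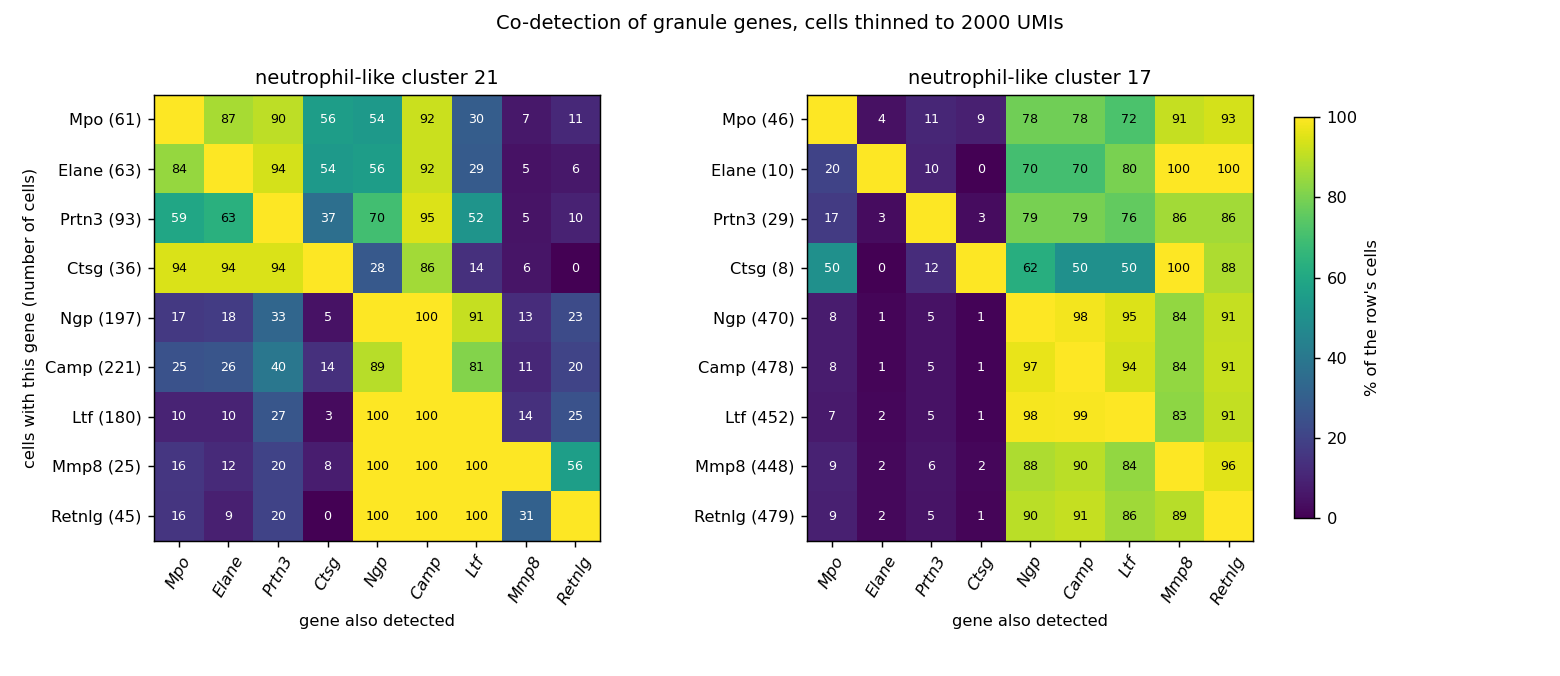
Percent of the thinned cells with the gene of the row (number of cells in parentheses) in which the gene of the column was also found, for neutrophil-like cluster 21 and neutrophil-like cluster 17. In cluster 21, 91.8% of cells with Mpo had Camp and 54.1% had Ngp, against 97.8% and 87.2% of all its thinned cells. In cluster 17, cells with Ngp had Mmp8 and Retnlg about as often as all its thinned cells did.

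The other genes of the granule programme, from lists held out of the clustering, mostly went with the members. Of 11 other secondary granule genes, 10 were at least 4-fold higher in neutrophil-like than in progenitor-like cells, where 2.14% of all genes were. Of them 0 were lower, where 3.61% were, and the median log2 difference was 4.02, against -0.53 over all genes. Genes such as Cd177 (0.0649 CPM in progenitor-like cells) passed the filter only through the neutrophil-like cells, so the count of 10 is a description. Lcn2, the siderophore-binding lipocalin, was at 8359 CPM in neutrophil-like and 9.12 CPM in progenitor-like cells, Olfm4 at 5977 and 50.8 CPM, Pglyrp1, a peptidoglycan recognition protein, at 4245 and 25.2 CPM, and Hp, haptoglobin, at 2306 and 405 CPM. The other members past 4-fold were Cd177, Slpi, Itgb2l, Chil3, Fcnb and Cybb, at 153 to 890 CPM in neutrophil-like cells. Cyba, a subunit of the NADPH oxidase, was at 1838 and 616 CPM, under 4-fold. Of 9 tertiary granule and surface genes, 7 passed the filter, 5 were higher (Mmp9, Adam8, Fpr1, Fpr2 and Cxcr2), where 2.14% of all genes were, and 0 lower, where 3.61% were. In cells with a late share under 10%, Mmp9, Adam8, Fpr1 and Fpr2 were at 0.75, 1.56, 0.196 and 1.04 CPM. These genes too passed the filter only through the neutrophil-like cells, so the count of 5 is likewise a description. Mmp9, gelatinase B, was at 923 and 953 CPM in cluster 17 of libraries 3 and 4 and at 134 and 78.6 CPM in cluster 21, the course of Mmp8. Fcnb, ficolin B, was at 229 and 219 CPM in cluster 17 and 1403 and 1502 CPM in cluster 21 of these libraries. Like the primary genes it was lower in cluster 17. Selplg (122 and 125 CPM) stayed under 4-fold, and Alpl had no UMI in these clusters.

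The list of other primary granule genes did not move as 1 group. Of 7 genes 6 passed the filter, 1 was higher in neutrophil-like cells, where 2.14% of all genes were, and 1 was lower, where 3.61% were. The median log2 difference was 1.39, against -0.53 over all genes. Lyz2, lysozyme, was at 17135 CPM in neutrophil-like and 1101 CPM in progenitor-like cells, and Ctsc, which cuts the serine proteases into their active form, at 131 and 566 CPM. Serpinb1a, an inhibitor of elastase, cathepsin G and proteinase 3, was at 992 and 280 CPM, Srgn, the granule proteoglycan serglycin, at 626 and 665 CPM, and Cd63, a granule membrane protein, at 545 and 137 CPM, none of them past 4-fold. Prss57, a further serine protease of primary granules, shared the peak of Elane, with 43.3 and 40.0 CPM in progenitor-like cells, 137 and 175 CPM in cluster 21 and 5.07 and 7.61 CPM in cluster 17 of libraries 3 and 4. Of 7 genes that activate or inhibit such proteases (5 passed the filter), which include Serpinb1a and Ctsc, Slpi was higher (820 and 91.0 CPM) and Ctsc lower. Cst7 was at 27.3 and 106 CPM.

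Regulators passed 4-fold in both directions. Of 11, 10 passed the filter. Cebpe and Ets1 were higher in neutrophil-like cells, where 2.14% of all genes were, and Irf8 was lower, where 3.61% were. Ets1 passed the filter only through the neutrophil-like cells, so the count of higher genes is a description. Cebpe, Gfi1, Myb and Irf8 of this list and Cxcr2 and Mmp9 of the tertiary list were held out of the clustering but stood among the markers that named clusters. The list median of -0.35 lay close to the -0.53 of all genes. Cebpe, which encodes C/EBP epsilon, was at 55.4 and 46.4 CPM in progenitor-like cells, 566 and 575 CPM in cluster 21 and 504 and 463 CPM in cluster 17 of libraries 3 and 4. Irf8, a factor of the monocyte branch, was at 378 and 349 CPM, 34.2 and 33.8 CPM, and 12.03 and 25.9 CPM in the same order. Spi1, which encodes PU.1, was at 587 CPM in neutrophil-like and 406 CPM in progenitor-like cells and Cebpd at 181 and 88.3 CPM, neither past 4-fold, and Ets1 was at 35.6 and 0.812 CPM. Of 12 cell cycle genes 0 were past 4-fold between neutrophil-like and progenitor-like cells, but between cluster 17 and cluster 21, 10 of 12 were lower, where 2.02% of genes were. Ube2c was at 34.8 CPM in cluster 17 and 545 CPM in cluster 21, Birc5 at 37.8 and 354 CPM, Rrm2 at 21.7 and 312 CPM, and Top2a at 31.4 and 299 CPM.

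**Figure D4:**
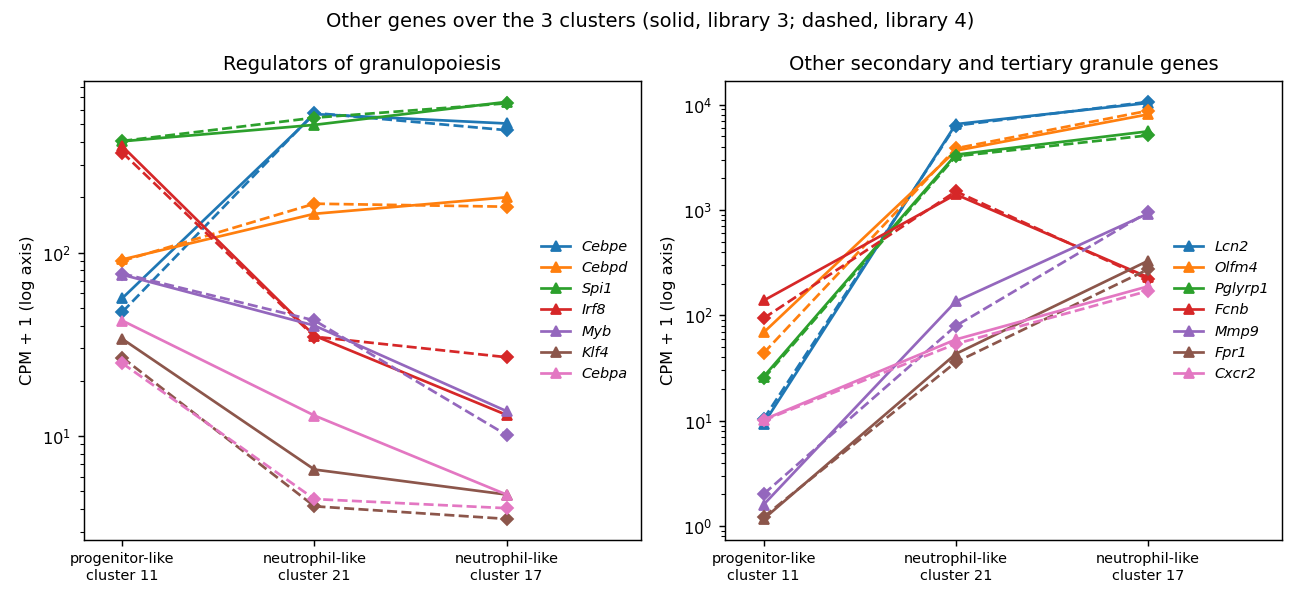
Level of 7 regulators (left) and 7 other late granule and surface genes (right) as CPM + 1 on a log axis over clusters 11, 21 and 17, with library 3 solid and library 4 dashed. Cebpe is higher and Irf8 lower in both neutrophil-like clusters than in cluster 11, and Fcnb peaks in cluster 21 where Mmp9 does not.

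Primary granule genes were also read in the monocyte lineage, and of the late genes Mmp8 was read there too. The monocyte progenitor-like cluster, led by Ifitm1, Cd34 and Ccr2, held 969, 852, 709 and 1218 cells of libraries 1 to 4 at a median of 23809 UMIs. It was set against erythroid, mesenchymal, endothelial and microglia-like cells (4215 cells, median 10209 UMIs). The primary sum was 3.32 higher than in these on the log2 scale, and 5.07, 5.09, 3.36 and 2.93 in libraries 1 to 4. Of the 4 primary genes, Mpo and Prtn3 were at least 4-fold higher, where 0.727% of 9220 genes were. Of the late genes 0 were at least 4-fold higher, 0 of 9 members were at least 4-fold lower, where 2.32% of genes were, and Retnlg did not pass the filter on low values. In this cluster 869 of 3748 cells, or 23.2%, held 10 or more C1q UMIs, and the part of macrophage RNA in the values was not tested.

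Prtn3 was the highest member in this cluster and nearly even over the libraries, with 578, 576, 658 and 654 CPM, against 12.3, 12.2, 46.9 and 60.5 CPM in the 4 other classes. Mpo was at 240, 271, 623 and 585 CPM, against 2.72, 2.64, 52.9 and 73.0 CPM. Ngp was at 0.376 and 0.329 CPM in libraries 1 and 2 and at 13.6 and 18.1 CPM in libraries 3 and 4, against 0.454, 0.211, 23.6 and 57.5 CPM, and so did not exceed those classes beyond counting error in any library. Mmp8 was at 16.87, 20.99, 13.97 and 15.02 CPM, above the 0.227, 1.06, 3.51 and 3.37 CPM of those classes in 4 of 4 libraries, although under 4-fold on the scale with 10 CPM added. The ratio of primary to late UMIs was 47.5, 41.1, 29.2 and 23.9 in this cluster, against 6.78, 7.71, 1.79 and 1.33 in the 4 classes. In those classes 1 cell held 662 of 6635 primary UMIs and 1 cell held 639 of 4356 late UMIs. In thinned cells Prtn3 was found in 46.2% and Mpo in 22.1% of the cluster, against 2.61% and 3.12% of microglia-like cells. In libraries 1 and 2, which held 7 and 6 neutrophil-like and 30 and 26 progenitor-like cells, these shares were 43.0% and 41.9% for Prtn3 and 16.7% and 14.8% for Mpo.

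The mix of primary genes differed from that of the progenitor-like cells. In the monocyte progenitor-like cluster Elane was at 37.8, 37.5, 32.7 and 39.3 CPM and Ctsg at 22.1, 27.8, 28.7 and 49.95 CPM. Per UMI of Mpo there were 0.158, 0.138, 0.052 and 0.067 UMIs of Elane, against 0.190, 0.337, 0.310 and 0.278 in progenitor-like cells, and 2.41, 2.12, 1.06 and 1.12 UMIs of Prtn3, against 1.18, 0.936, 0.632 and 0.681. The Elane ratio was lower and the Prtn3 ratio higher in 4 of 4 libraries.

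Monocyte-like cluster 9, led by Ly6c2, carried more primary genes and 1 late gene. It held 178, 182, 368 and 508 cells, with 5 of 8 monocyte markers at least 2-fold above all other cells. Its 10 leading genes held Ly6c2 and Ear2 of the monocyte markers and S100a8 of the neutrophil markers, which decided its name. Of 11 neutrophil markers 7 were at least 2-fold above all other cells there, with a sum of 22546 CPM and none at 0, against 0 of 11 and 426 CPM in the monocyte progenitor-like cluster, and their part in the result was not tested. Prtn3 was at 1017, 950, 976 and 1120 CPM, Mpo at 338, 285, 651 and 818 CPM, and Elane at 291, 272, 338 and 390 CPM, so that Elane was several times its level in the monocyte progenitor-like cluster. All 4 primary genes were at least 4-fold above the 4 background classes, where 1.65% of 9169 genes were, and 0 of 9 members were at least 4-fold lower, where 2.88% were. Of the late genes Mmp8 alone was at least 4-fold higher. It was at 112, 120, 86.6 and 87.7 CPM, while Ngp was at 0.498, 0.477, 14.8 and 90.1 CPM. Over all libraries 1 cell held 460 of the 1125 Ngp UMIs of cluster 9. In libraries 1 and 2 a Mmp8 UMI was present in 68.9% of 360 cells before thinning, and the highest cell held 20 of the 953 UMIs. The interferon-gene monocyte-like cluster kept Mmp8 (43.8, 54.6, 89.3 and 54.9 CPM) at lower Mpo (26.2, 13.3, 53.3 and 188 CPM), and in macrophage-like cells Mmp8 was at 0.322 to 1.80 CPM. In that interferon-gene cluster 1 cell held 396 of the 1467 Mpo UMIs of all libraries. Other secondary granule genes past 4-fold in cluster 9 were Hp, Cybb, Slpi, Fcnb, Pglyrp1 and Olfm4, at 85.3 to 1224 CPM.

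**Figure D5:**
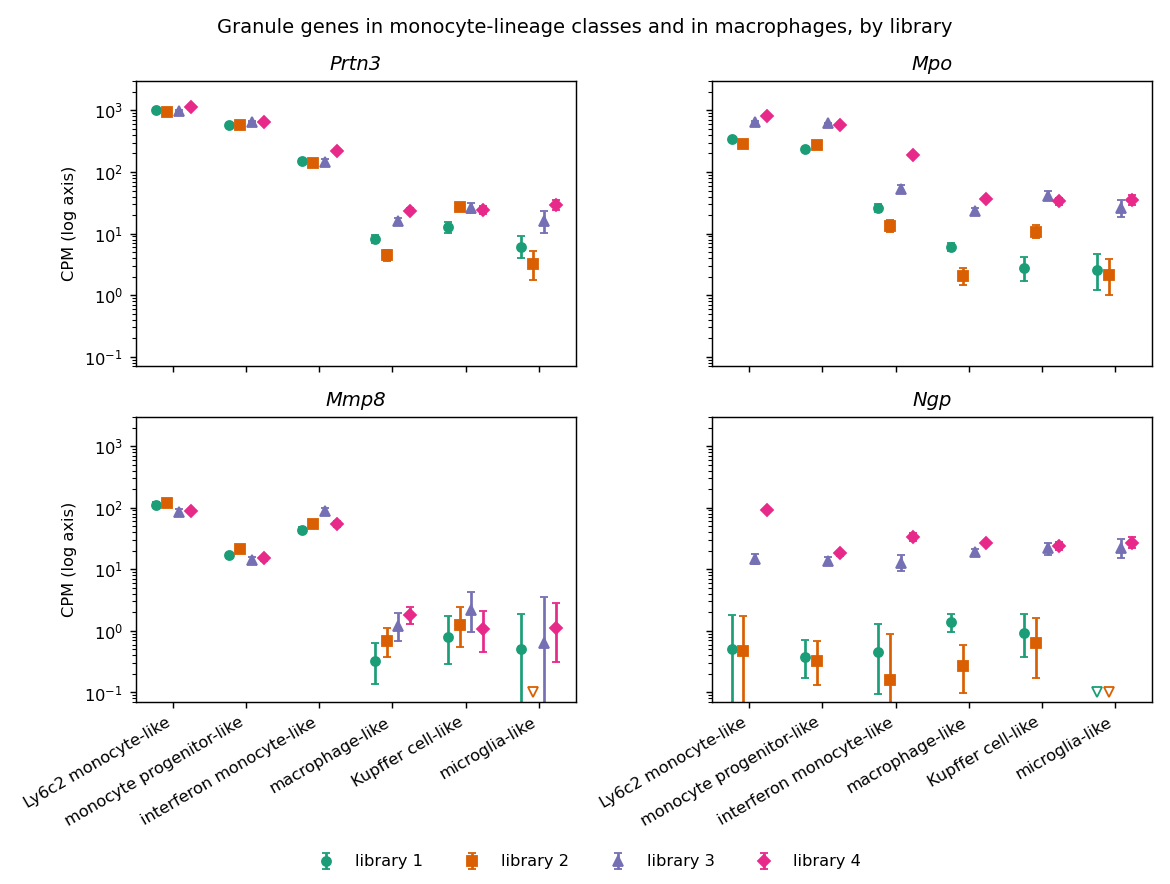
Level of Prtn3, Mpo, Mmp8 and Ngp (CPM, log axis) in 6 cell classes of the monocyte and macrophage lineage, 1 symbol per library with its exact Poisson 95% interval; open triangles mark a library with 0 UMIs. Prtn3 and Mpo are highest in Ly6c2 monocyte-like and monocyte progenitor-like cells in each library, Mmp8 is higher in the interferon cluster than in the progenitor-like one, and Ngp is low in libraries 1 and 2 in all 6 classes.

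Other classes held members through few cells or without the rest of the group. A cluster led by Trbc2, the constant region of the T cell receptor beta chain, held 446 and 599 cells in libraries 3 and 4. It was named T cell or NK cell-like by 3 of 6 markers, and 4 of 8 granulocyte-monocyte progenitor markers were raised as well. In the same libraries this cluster had Mpo at 621 and 553 CPM and Prtn3 at 339 and 350 CPM with Elane at 5.34 and 12.9 CPM. Its Elane did not exceed the 5.67 and 10.7 CPM of microglia-like cells beyond counting error. Its highest cell held 1.56% of the 12870 Mpo UMIs, and 60.5% of its cells had 1, before thinning. In mast cell or basophil-like cells of libraries 1 and 2, by contrast, 2 of 120 cells held 300 and 150 of 475 Mpo UMIs. Single cells also gave 972 of 1026 Ngp UMIs in the Ttr-led cluster, 545 of 648 in the Krt5-led cluster and 348 of 535 in mesenchymal cell-like cells of libraries 3 and 4, so the level of such a class is set mostly by 1 barcode.

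Over the 29 clusters of at least 100 cells the members formed the same groups. Pearson correlations of log2(CPM + 10), which are descriptions over clusters that share libraries and free RNA, were 0.909 to 0.969 among the 4 primary genes and 0.990 to 0.996 among Ngp, Camp and Ltf. Retnlg followed these at 0.887 to 0.930 and Mmp8 at 0.761 to 0.812. Of 5896 ranked features, Gria3 (r = 0.847), Ms4a3 (0.830), Atp8b4 (0.822) and Nrg1 (0.802) were most like the primary sum, and Prss57 (0.768) and Fcnb (0.734) were among the first 10. Lcn2 (0.986), BC100530 (0.982), Stfa2 (0.964) and Stfa2l1 (0.963) were most like the late sum, followed by S100a9, Wfdc21, Stfa3, Olfm4, Pglyrp1 and Cd177 at 0.958 to 0.920. Apart from Prss57, Fcnb, Lcn2, Olfm4, Pglyrp1 and Cd177 these genes were open to the clustering.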

How the data were processed

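The deposited matrix holds 1 count of UMIs per gene and barcode, as whole numbers and not normalized, and its header gives Cell Ranger 3.0.1 as the software. Version 2.1.1 of that tool and mm10 appear in the submitters' processing notes, and a 3′ kit was used per the labels' protocols. Barcode suffixes 1 to 4 match no label, so no column or row was assigned to a group.

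Barcodes with at least 1000 UMIs, at least 500 genes and at most 10% mitochondrial UMIs were kept, which removed 4461 of 39048. Scrublet then marked 1, 0, 214 and 0 cells of libraries 1 to 4, and these 215 were removed. In libraries 1, 2 and 4 it marked too few to have worked, so doublets remain there. That left 34372 cells with a median of 13680 UMIs. Cells were clustered (2000 variable genes, 30 principal components, 15 neighbours, Leiden resolution 0.6) with scanpy 1.11.5 and python-igraph 0.11.9, after 63 genes, the members and 6 lists, had been held out. Clusters were named where at least 3 markers of a type, and no fewer than its other markers, were at least 2-fold above other cells. The type with most markers among the 10 leading genes was taken, then the one with the largest share raised, and ties stayed unnamed. This rule was set after the markers. Clusters whose median depth was under that of their sample divided by 3 also stayed unnamed.

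UMIs were summed per class and library and compared as log2(CPM + 10), with a filter of a mean of 5 CPM and a 4-fold rule. No p-values were computed, because cells are not replicates and the matrix has no map to samples. Shares were taken after thinning each cell to 2000 UMIs. Named list genes were up to 4 of the highest CPM per list and any at least 4-fold apart at 50 CPM or more. Versions were Python 3.11.15, numpy 2.4.6, pandas 2.3.3, scipy 1.17.1, scikit-learn 1.9.0 and matplotlib 3.10.9. The members and lists were chosen with earlier results of these data known.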

Additional observations from a re-analysis of the deposited data

Results flagged for a closer look

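Granule UMIs were also present in barcodes that were not kept as cells, which no comparison used. Over the barcodes under 1000 UMIs (837, 370, 573 and 976 of them in libraries 1 to 4), the late granule genes summed to 29.4, 32.0, 1361 and 2570 CPM. The primary genes summed to 137, 96.1, 639 and 736 CPM in the same barcodes. Libraries 3 and 4 stood above libraries 1 and 2 for both sums, the order that the kept cells also show. Each sum lies above the limit that a count of 0 allows. The part of empty droplets and of small neutrophils in these barcodes was not tested.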

How the results depend on the processing

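No paired analysis was possible because the barcode suffixes match no sample label. The late sum (neutrophil-like minus progenitor-like, 10.25) was 9.32 with a stricter cell filter, 9.07 with variable genes chosen within libraries, 9.78 with the mean of per-cell CPM and 9.29 with the shallow Hbb-y cluster counted as neutrophil-like. The primary sum (-1.62) was -0.90 with variable genes chosen within libraries, -2.76 with the mean of per-cell CPM, -2.01 without the 1% of cells highest in the gene, and -1.94 with the shallow cluster counted. The monocyte progenitor-like difference (3.32) was 4.74 against microglia-like cells alone, and had no value at resolution 1.0, where no cluster took that name. These 3 differences kept their sign under every setting that gave a value. The share with both kinds of UMI (15.2%) was 26.1% after thinning to 5000 UMIs, 4.62% with at least 2 UMIs of each, and 12.5% to 17.3% with 1 library left out, lowest without library 4. The causes were not tested. Of 288 values of single members, 285 kept their sign. Elane (neutrophil-like minus progenitor-like, -0.41) turned to 0.05 with variable genes chosen within libraries and to 0.01 with doublets kept, and Ltf in monocyte progenitor-like cells (-0.48) to 0.00 against microglia-like cells. Microglia-like cells as background, the 1% trim and the shallow cluster were chosen after seeing the data, as was the spread used here, over libraries with at least 30 cells of each class. Libraries 1 and 2, with 7 and 6 neutrophil-like cells, limit every value by library there.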

Other observations

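The tdTomato reporter transcript differed over the same 3 clusters. It was at 17.4 and 22.2 CPM in cluster 11 of libraries 3 and 4, at 151 and 209 CPM in cluster 21 and at 429 and 463 CPM in cluster 17, against 682 and 645 CPM in microglia-like cells. The counting intervals of the 3 clusters did not overlap in either library, which says nothing of the spread between cells. Since the libraries match no label, these levels were set against no genotype.

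A shallow cluster led by Hbb-y, an embryonic globin, was left unnamed, with 1050 of its 1168 cells in library 4 and a median of 1806 UMIs. It carried Mpo at 959 CPM, Prtn3 at 817 CPM and Ngp at 1142 CPM over all libraries. The part of neutrophils, free RNA and broken cells in it was not tested.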
